A study of Homo sapiens with 3 samples.

Results

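Negative regulators of JAK-STAT signalling were examined in HT-29, an established human colon adenocarcinoma line of epithelial origin, after treatment with interferon-γ (IFN-γ). The set was fixed by gene name, with no cut on measured values, though earlier results of these data were known. It held SOCS1, SOCS2, SOCS3, SOCS5, SOCS6, CISH, PIAS1, PTPN2, PTPN6 and PTPN11, 10 of the 11963 genes named on the array. All 10 genes were measured, by 27 of the 19065 probe sets that the platform annotation ties to 1 gene symbol. There was a single group of 3 cultures, described by the series as biological replicates, each grown for 24 h after plating (50000 cells per cm2, 10% serum) and then exposed for 24 h to IFN-γ at 200 U/ml. No untreated cultures were analysed here, so each value is a level in treated cells and none measures a response to IFN-γ. HT-29 is 1 cell line from 1 tumour, so the 3 arrays describe cultures of that line alone.

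Cytokine receptors such as the IFN-γ receptor signal through JAK kinases, which phosphorylate STAT transcription factors. STATs then enter the nucleus and bind short palindromic DNA sites known as GAS elements. The pathway is restrained at several points. Proteins of the SOCS family, to which CISH belongs, carry an SH2 domain that binds phosphorylated kinases or receptors and a SOCS box that recruits a ubiquitin ligase, and several of their genes are themselves STAT targets, which closes a feedback loop. PIAS proteins bind STATs and act as SUMO ligases. The phosphatases PTPN2, PTPN6 (SHP-1) and PTPN11 (SHP-2) remove phosphate from kinases, receptors or STATs. In the gut epithelium, STAT signalling is a route by which immune cytokines act on barrier cells.

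A stretch upstream of CISH is shown because it was the only promoter window of the set that held a GAS-type motif. RefSeq promoter windows (GRCh38.p14, from 250 bases before to 50 after a gene's start) were matched for 7 of the 10 genes, giving 10 windows. The motif TTCNNNGAA reads the same on both strands, and it was present in 7.66% of all 35116 windows. The CISH window held 4 copies, and 7 windows in all (0.0199%) held 4 or more. The stretch lies on the minus strand at chr3:50611869-50612024, upstream of the gene's start, and is written 5′ to 3′ with the 4 motifs in capitals.
CISH: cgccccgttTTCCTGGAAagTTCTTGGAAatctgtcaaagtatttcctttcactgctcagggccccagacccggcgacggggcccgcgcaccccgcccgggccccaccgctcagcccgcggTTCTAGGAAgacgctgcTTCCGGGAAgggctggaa
The first pair of motifs begins 241 and 230 bases before the start, and the second pair 129 and 112 bases before it. The windows of SOCS1, SOCS3, SOCS6, PIAS1, PTPN2 and PTPN6 held no TTCNNNGAA, which says only that these letters are not in those windows. With a spacer of 2 bases (TTCNNGAA, in 7.74% of all windows) 1 window of the set, of SOCS3, had a match, and with a spacer of 4 (TTCNNNNGAA, in 6.44%) none had. These matches are descriptions of sequence, not of binding.

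Every value below depends on a corrected order of the names, which was inferred from how far the probe sets of 1 gene agreed in signal. The r values that follow measure that same agreement, so they describe the chosen order and are not separate support for it. Under the names as deposited, a gene's first 2 probe sets had weakly related signals (r = 0.19 over 4310 genes), and the median log2 signal of housekeeping probe sets was 1.03 above that of probe sets for genes restricted to other tissues. With the names re-ordered, r was 0.60 and that difference was 8.34, and moving them by 1 to 3 further rows either way gave r between 0.17 and 0.23. These correlations are across genes, which are not independent replicates. All 27 probe sets of the set were moved by 487 rows. A second comparison set a gene's first probe set within 300 rows of them against its first probe set elsewhere. Over 1610 other genes it gave r = 0.53, and at most 0.11 when only the nearby one was moved by 1 to 3 extra rows. A single displacement of all names by 487 rows, picked for the highest r of 3001 tried, gives these 27 probe sets the same signals.

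A probe set was called above background when its log2 signal exceeded a limit by more than the replicate spread allowed. Each array had its own limit, set at the 95th percentile over 107 probe sets of 77 genes restricted to other tissues, such as eye, muscle, brain and testis, with signals of 183.6, 209.8 and 175.7 for replicates 1 to 3. The one-sided test of limma was used, p-values were adjusted by Benjamini-Hochberg over the 19065 probe sets, and the threshold on the adjusted p was 0.05. These p-values take the limit as exact and leave out its sampling error. In the same fit all 14 measured housekeeping genes and 14 of 16 epithelial markers had a called probe set, against 1 of 13 leukocyte markers and 1 of 11 fibroblast and endothelial markers. The intestinal transcription factor CDX2 was among the epithelial markers that were not called.

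Of the 10 regulators, 5 had at least 1 probe set above the limit: the SOCS family members SOCS5 and SOCS6, the SUMO ligase PIAS1, and the phosphatases PTPN2 and PTPN11. SOCS1, SOCS2, SOCS3, CISH and PTPN6 had none. Among all genes, 42.6% had a called probe set, and among probe sets 9 of 27 (33.3%) were called against 37.2% of all. The share of the set was thus near the share of the array as a whole. At an unadjusted p under 0.05, 12 of the 27 passed, against 39% of all probe sets. Without a test, 10 probe sets lay above the limit on all 3 arrays (40.1% of all probe sets did), 6 on 1 or 2 arrays and 11 on none (49% of all probe sets lay under it on every array). The median difference from the limit was 0.21 log2 units over the 27 probe sets and -0.33 over all probe sets. In such bulk RNA, fewer cells expressing a gene and less RNA per cell cannot be told apart.

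**Figure D1:**
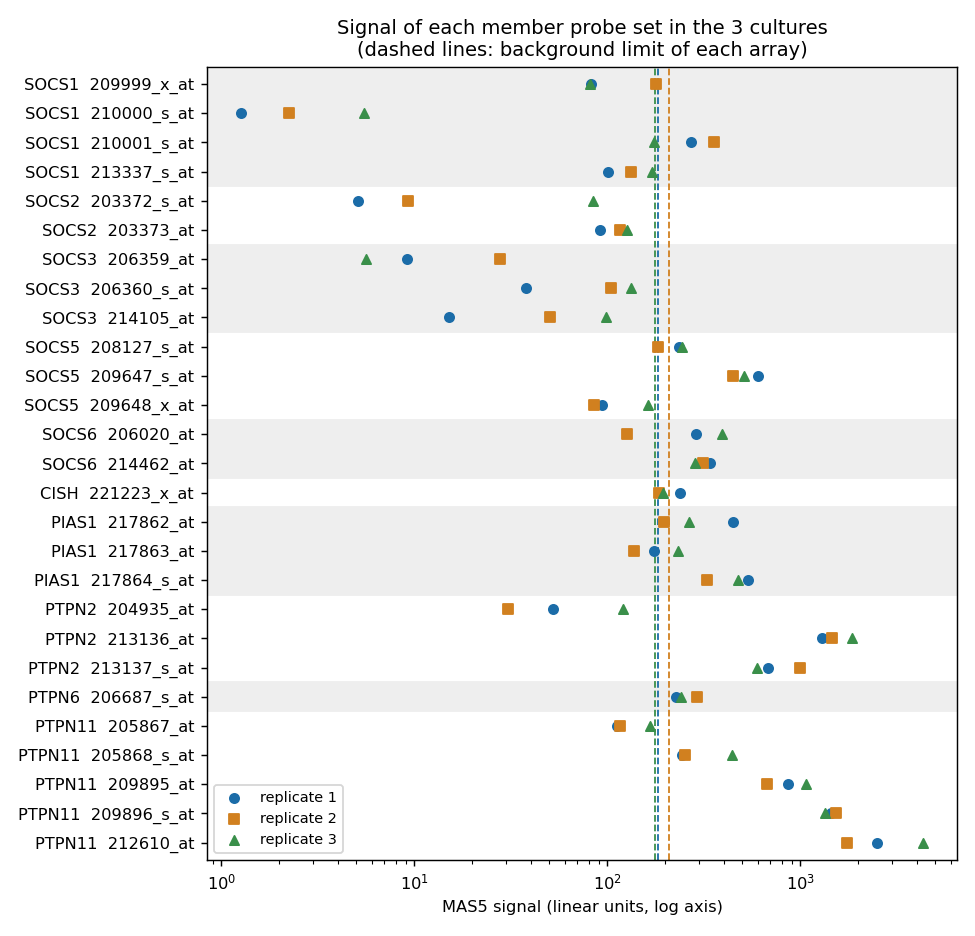
Signal of each of the 27 probe sets in replicates 1, 2 and 3 (points) on a log axis, grouped by gene, with the background limit of each array as a dashed line. The probe sets of SOCS2 and SOCS3 lie left of all limits, whereas 4 of the 5 probe sets of PTPN11 lie right of them.

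The SOCS family, with CISH, was read by 15 probe sets. Of these, 2 were called (37.2% of all probe sets were), 3 had an unadjusted p under 0.05 (39% of all) and 9 were under the limit on every array (49% of all). Their median difference from the limit was -0.78 log2 units, beside -0.33 over all probe sets.

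SOCS1, a direct inhibitor of JAK kinases and a known feedback regulator of IFN-γ signalling, was read by 4 probe sets, and none was called. Probe set 210001_s_at had signals of 269.8, 358 and 173 in replicates 1, 2 and 3. It was above the limit in replicates 1 and 2 and just under it in replicate 3. The mean difference from the limit was 0.44 ± 0.23 log2 units (SE, n = 3; limma adjusted p = 0.125, unadjusted p = 0.0487), and without replicate 3 it was 0.66 and passed (adjusted p = 0.0274). The signals of 213337_s_at were 101, 133 and 170, and those of 209999_x_at were 82.0, 178 and 80.9, all under the limit. The fourth, 210000_s_at, had 1.26, 2.24 and 5.47, at the bottom of the scale in every culture. All 4 SOCS1 probe sets carry the suffix _s_at, which marks designs shared by several transcripts, or _x_at, which marks designs prone to cross-hybridisation, so related transcripts can contribute to their signal.

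SOCS3, which inhibits signalling from receptors that use the gp130 chain, lay under the limit on all arrays with each of its 3 probe sets. Signals of 206360_s_at were 37.7, 105 and 132 in replicates 1, 2 and 3, those of 214105_at were 15.1, 50.7 and 98.2, and those of 206359_at were 9.17, 27.6 and 5.63. All of these values were at background level, where the order of the cultures cannot be read. The mean difference from the limit was -1.23 log2 units for 206360_s_at, with a 95% interval from -2.15 to -0.32. For SOCS2, a regulator of growth hormone signalling, 203373_at had signals of 91.6, 116 and 126, with a difference of -0.78 log2 units and an interval from -1.41 to -0.16. The other SOCS2 probe set, 203372_s_at, gave 5.12, 9.26 and 84.0, a 16.4-fold range between cultures that lay wholly under the limit. None of these 5 probe sets passed at an unadjusted p under 0.05 in limma's test.

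CISH, an inhibitor of STAT5-dependent signalling and the gene with the 4 GAS-type motifs shown above, had 1 probe set, 221223_x_at, with signals of 238, 185 and 193 in replicates 1, 2 and 3. Replicates 1 and 3 were above their limits and replicate 2 was under it. The difference from the limit was 0.11 ± 0.23 log2 units (SE, n = 3; limma adjusted p = 0.744), with a 95% interval from -0.42 to 0.63. The CISH signal therefore could not be told from the limit at this precision, and its only probe set is of the cross-hybridising kind.

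SOCS5 and SOCS6, members with long amino-terminal regions that are known as inhibitors of receptor tyrosine kinase signalling, each had 1 called probe set. For SOCS5, 209647_s_at had signals of 606, 446 and 510.4, above the limit in every culture. Its difference from the limit was 1.45 ± 0.20 log2 units (SE, n = 3; limma adjusted p = 0.000147). The other SOCS5 designs did not pass: 208127_s_at lay around the limit with 236, 183 and 245, and 209648_x_at lay under it with 93.4, 85.5 and 163. For SOCS6, 214462_at had signals of 338, 314 and 284, a 1.19-fold range, and exceeded the limit by 0.72 ± 0.20 log2 units (SE, n = 3; limma adjusted p = 0.0090). That call was lost without replicate 1 (adjusted p = 0.121) and with the limit at the 99th percentile. The other SOCS6 probe set, 206020_at, gave 287, 127 and 395, with replicate 2 under its limit, and did not pass (adjusted p = 0.393). Without replicate 2 it was 0.91 log2 units over the limit and passed (adjusted p = 0.00555), and without replicate 3 it lay at -0.041.

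**Figure D2:**
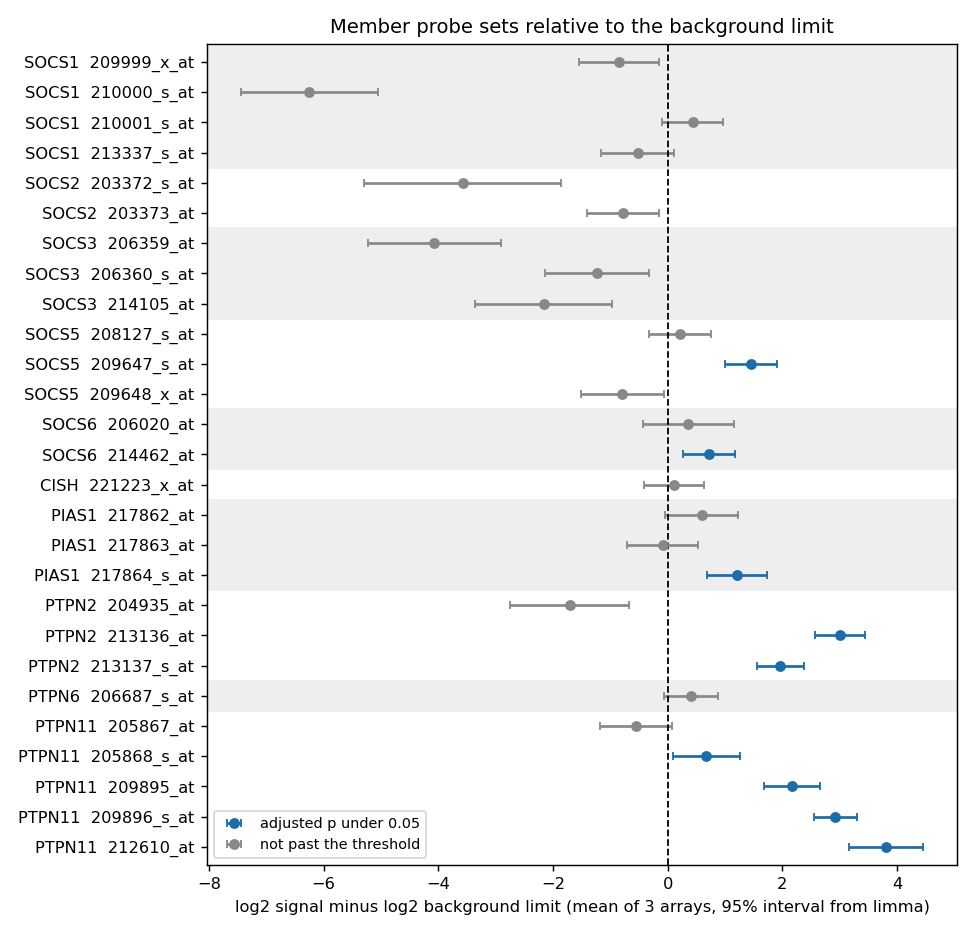
Mean log2 signal minus log2 background limit for each of the 27 probe sets, with 95% intervals from limma over 3 arrays. The dashed line at 0 is the limit. The 9 called probe sets are blue, and 9 intervals contain 0.

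PIAS1, which binds activated STAT factors and acts as a SUMO ligase, was called on 1 of 3 probe sets. Signals of 217864_s_at were 534, 329 and 475 in replicates 1, 2 and 3, all above the limit, by 1.21 ± 0.23 log2 units on average (SE, n = 3; limma adjusted p = 0.00113). With the limit at the 99th percentile this call was lost (adjusted p = 0.0884). The design 217862_at gave 446, 198 and 265, with replicate 2 under its limit, and did not pass (0.60 log2 units; adjusted p = 0.0822). Without replicate 2 its difference was 0.94 and passed (adjusted p = 0.00545). The design also passed with the limit at the 90th percentile (adjusted p = 0.0190) and where low signals were left out before the fit (adjusted p = 0.0252). That filter selects on the signal that is then tested and left the difference at 0.60, so the last pass is not separate support. The third, 217863_at, gave 175, 138 and 233 and exceeded the limit in replicate 3 only. In all 3 PIAS1 designs replicate 2 was the dimmest culture.

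The 3 phosphatases were called on 6 of their 9 probe sets (37.2% of all probe sets were called), all of PTPN2 or PTPN11 and none of PTPN6. PTPN2, also known as TC-PTP, dephosphorylates JAK kinases and is a known susceptibility gene for inflammatory bowel disease. Signals of 213136_at were 1302, 1458 and 1859 in replicates 1, 2 and 3, and those of 213137_s_at were 678, 997 and 598. Every value was well over its limit, by 3.01 ± 0.19 and 1.97 ± 0.18 log2 units on average (SE, n = 3 each; limma adjusted p = 1.1e-06 and 1.16e-05). The cultures had a different order on the 2 designs, with replicate 3 brightest on the first and dimmest on the second. The PTPN2 design 204935_at lay under the limit in every culture with 52.3, 30.7 and 119.9.

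PTPN11, the phosphatase SHP-2, removes phosphate from STATs but is also known to carry growth factor signals from docking proteins to the RAS pathway. It was called on 4 of 5 probe sets, the most of any gene of the set. Signals of 212610_at were 2484, 1743 and 4336 in replicates 1, 2 and 3, a 2.49-fold range that was the widest among the 9 called probe sets. It exceeded the limit by 3.81 ± 0.28 log2 units (SE, n = 3; limma adjusted p = 2.83e-06). The design 209896_s_at gave 1450, 1524 and 1343, the closest agreement between cultures among the 27 probe sets (SD of 0.09 log2 units), and lay 2.93 ± 0.16 log2 units over the limit (SE, n = 3; adjusted p = 5.38e-07). For 209895_at the signals were 863, 670 and 1071, with a difference of 2.17 ± 0.21 (SE, n = 3; adjusted p = 1.73e-05). The weakest call was 205868_s_at, with 243, 254 and 442 and a difference of 0.67 log2 units (adjusted p = 0.040). It was lost without replicate 1 (adjusted p = 0.0624) and without replicate 3 (adjusted p = 0.238), and also with the limit at the 99th percentile or without a variance trend. The fifth design, 205867_at, was under the limit in every culture with 113, 116 and 166.

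PTPN6, the phosphatase SHP-1, is best known from blood cells and is also made by epithelia. Its only probe set, 206687_s_at, had signals of 226, 291 and 240.1 in replicates 1, 2 and 3, each above its limit. The difference of 0.41 ± 0.20 log2 units (SE, n = 3) did not pass (limma adjusted p = 0.103, unadjusted p = 0.0398), and its 95% interval ran from -0.06 to 0.88. It passed with the limit at the 90th percentile (adjusted p = 0.0131) and where low signals were left out before the fit (adjusted p = 0.0474). That filter selects on the signal that is then tested and left the difference at 0.41, so the second pass is not separate support. The common leukocyte phosphatase PTPRC (CD45) lay under the limit with all of its 3 probe sets not called, and the brightest of them gave 32.6, 4.77 and 10.9. The 1 called leukocyte marker of the 13 measured was CD53, with 236, 497 and 416 (limma adjusted p = 0.00543).

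Probe sets of 1 gene often differed in their call. Of the 8 genes with several probe sets, 5 had some called and some not, and no gene of the set was called on all of its probe sets. Among all 4310 genes with several probe sets, 32.4% had such mixed calls. Without the suffixes _s_at and _x_at, 12 probe sets of 6 genes remained and 4 of them were called (30% of such probe sets were called on the whole array). SOCS1, SOCS5, CISH and PTPN6 had only suffixed designs. The median SD between cultures was 0.34 log2 units over the 9 called probe sets, with a range from 0.09 to 0.66, beside a median of 0.29 and quartiles of 0.18 and 0.43 over all called probe sets. Over the others it was 0.56, beside 0.50 over all probe sets not called. Replicate 3 was the brightest culture for 16 of the 27 probe sets (59.3%), and for 40.3% of all probe sets. Replicate 1 was brightest for 5 (23% of all probe sets) and replicate 2 for 6 (36.7% of all). Among the 9 called ones, replicate 3 was brightest for 4, replicate 1 for 3 and replicate 2 for 2.

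**Figure D3:**
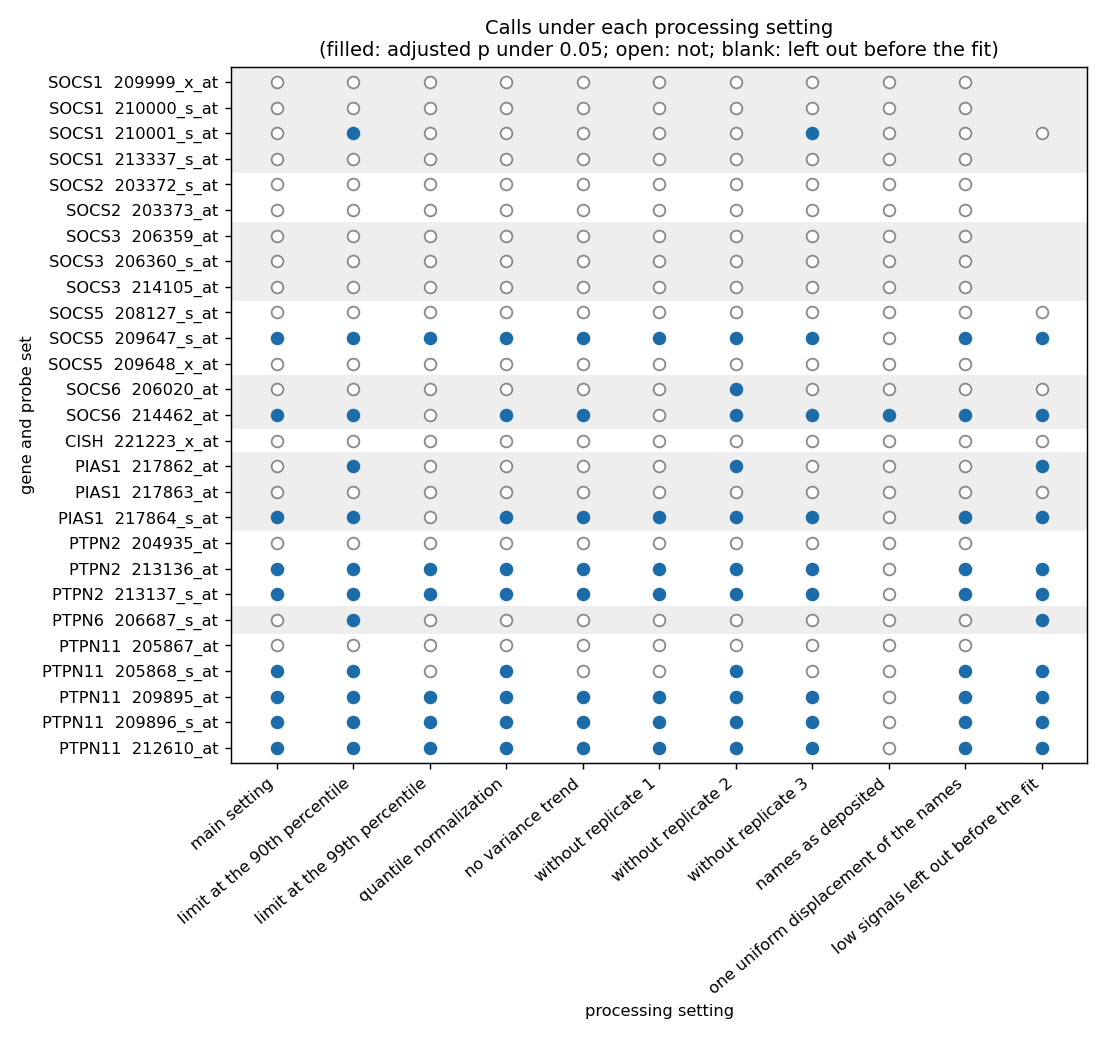
Calls for the 27 probe sets (rows) in the main setting and 10 other processing settings (columns), with filled points for an adjusted p under 0.05. Only 1 probe set of the set is filled under the names as deposited, and the 6 that are filled in all other settings belong to SOCS5, PTPN2 and PTPN11.

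The rest of the pathway gives the setting for these genes. Of 18 measured receptor chains and JAK kinases, 11 had a called probe set (61.1%, beside 42.6% of all genes), with a median of 0.79 log2 units for each gene's brightest probe set, beside 0.58 for the 10 regulators and 0.026 for all genes. The ligand-binding chain IFNGR1 had signals of 2162, 2026 and 3444, and its partner IFNGR2 had 922, 955 and 714. The kinases JAK1 (722, 566 and 620.3) and JAK2 (402, 524 and 435, on 1 of 2 probe sets) were called, with differences from the limit of 1.74 and 1.25 log2 units (limma adjusted p = 3.16e-05 and 0.000207). TYK2, the kinase of type I interferon receptors, was not, with 212, 235 and 116. The interleukin receptor IL6R, which signals with gp130, had the lowest difference of the list at -4.26 log2 units.

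Of 7 measured STAT factors and partners, 5 were called (71.4%, beside 42.6% of all genes). Signals of these other pathway genes are those of the probe set highest over the limit. IRF1, an interferon-induced transcription factor, had signals of 4375, 6324 and 4556, and STAT3 had 2785, 2812 and 1677. STAT5B passed on 1 of its 3 probe sets, with 286, 313 and 314. STAT5A had 1 probe set, with 148, 169.7 and 111, which did not pass. CISH, known as a target of the STAT5 factors, is described above.

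Other negative regulators outside the set were called for 3 of 9 measured genes, a share of 33.3% beside 42.6% of all genes, and with the limit at the 99th percentile limma called 0 of 9 (1 at an unadjusted p under 0.05). USP18, a brake on type I interferon signalling, had signals of 419, 354 and 450.3 and was called (limma adjusted p = 0.000957). PTPN1, the phosphatase closest to PTPN2 in the family, had 444, 415 and 305 on the 1 of its 3 probe sets that passed, with a difference from the limit of 1.02 log2 units (adjusted p = 0.00128). PIAS3 gave 245, 241 and 156, PIAS4 gave 156, 168 and 169, and SOCS7 gave 56.5, 96.7 and 59.1, and none of them passed.

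Partners through which the regulators act are given by the same call, which 42.6% of all genes passed. All 6 measured ligase partners of the SOCS box passed, from ELOC (elongin C; 3301, 3512 and 4558) to RNF7, a RING subunit (664, 893 and 630.5). Of 6 listed genes of SUMO conjugation 2 were measured, and both passed, with SUMO3 at 4050, 3302 and 3764 and the activating enzyme subunit SAE1 at 2467, 3155 and 2749. Of 5 measured docking partners of PTPN11, 3 passed. IRS1, an insulin receptor substrate, had 1029, 886 and 1796, and the adaptor GAB2 was under the limit with 28.7, 124 and 44.5. These counts describe short lists, and differences between lists were not tested.

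**Figure D4:**
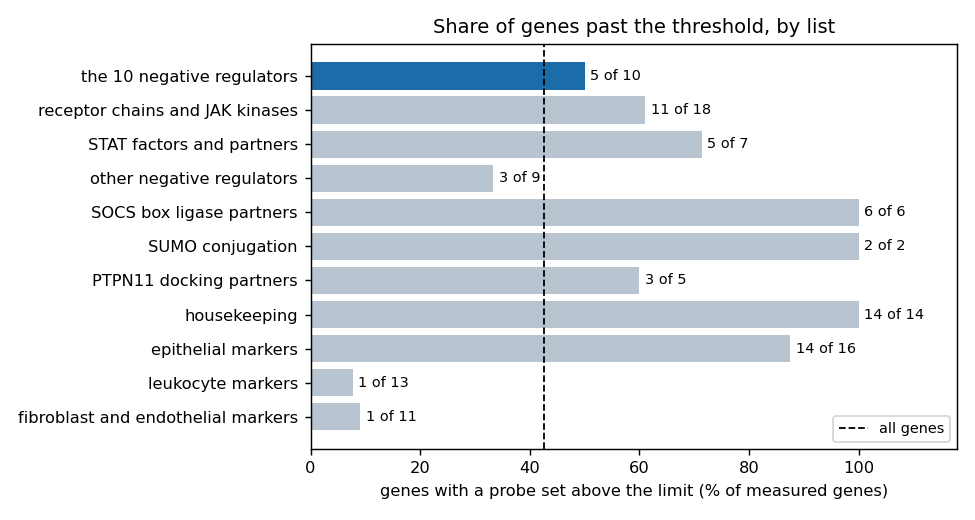
Share of measured genes with a probe set above the background limit (bars, in percent, with counts) for the 10 regulators and the other lists. The dashed line marks the 42.6% of all genes that passed, and the regulators stand at 5 of 10.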

How the data were processed

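Gene expression was measured on Affymetrix arrays in 3 cultures. The submitters' processing notes name MAS5 and Affymetrix Expression Console 1.1. Each deposited value is a linear intensity of 1 probe set. With the top and bottom 2% of values trimmed, all 3 arrays had a mean of 500.0, so they share a scale. The scaling target and presence calls are not given in the sources used here. Median signals were 137, 144 and 141 in replicates 1 to 3, and precision is limited by the number of arrays.

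Of 22283 rows, 22277 held values. Names were re-ordered: 15 unnamed values, 100 probe sets numbered from 200000, 493 with lower numbers, 21622 others, then 47 unnamed values. No pseudocount or filter was applied; log2 signals were fitted in R 4.3.3 by limma 3.58.1, using a variance trend; the fit was tested on simulated data. Symbols were updated by gene ID through a RefSeq table, and all 10 genes matched. Members, lists, limit and tests were chosen with earlier results of these data known. Named are all probe sets of the 10 genes, and, from each pathway list, the genes highest and lowest relative to the limit plus a few named by symbol. Alternatives were other limits, quantile normalization, a filter on low signals, no variance trend, each replicate left out, other orders of the names, no suffixed probe sets, and 1 value per gene.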

Additional observations from a re-analysis of the deposited data

How the results depend on the processing

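Calls were recomputed for the 27 probe sets under 9 alternatives beside the names as deposited. In all that measured them, 6 called probe sets (209647_s_at of SOCS5, both of PTPN2, and 3 of PTPN11) passed, 14 never did, and 7 passed in some. Quantile normalization and one uniform displacement of the names changed none of the 27 calls. The uniform displacement gives these 27 probe sets the same signals as the main order, so little change was possible there. With the 99th percentile as the limit, 3 genes of the set passed, as did 7 receptor chains and JAK kinases and 0 other negative regulators (1 at an unadjusted p under 0.05), and these probe sets fell under the limit: CISH 221223_x_at (-0.54), PIAS1 217862_at (-0.054), PTPN6 206687_s_at (-0.24), SOCS1 210001_s_at (-0.21), SOCS5 208127_s_at (-0.44) and SOCS6 206020_at (-0.29). With the 90th percentile PIAS1 217863_at rose over it (0.21), 12 probe sets of 7 genes passed, and those added were 210001_s_at of SOCS1, 217862_at of PIAS1 and 206687_s_at of PTPN6. With low signals left out before the fit, 11 of the 16 probe sets kept, of 6 genes, passed. This filter selects on the signal that is then tested, so its adjusted p-values cannot be set beside those of the main fit. Leaving out 1 replicate gave between 7 and 11 called probe sets and between 4 and 6 genes, and 3 differences changed sign, with a range from -0.024 (without replicate 1) to 0.26 for CISH 221223_x_at, from -0.34 to 0.17 (without replicate 2) for PIAS1 217863_at and from -0.041 (without replicate 3) to 0.91 for SOCS6 206020_at. Without suffixed probe sets 5 of 12 probe sets of the set, 3178 of 10100 of all and 3 of 4 ligase partner genes passed. The SUMO list had no value there. In that setting the limit, the variance trend and the adjustment were all recomputed from the unsuffixed probe sets, and their effects were not separated. With 1 value per gene, 5 of the 10 genes passed with the brightest probe set and 5 with the median. Under the names as deposited 1245 of all 19065 probe sets passed, and 1 of the set, from 1 gene. The lists then had 3 receptor chains and JAK kinases, 2 STAT factors and partners, 1 other negative regulator, 1 ligase partner, 0 SUMO genes and 0 docking partners called by limma, with 0 of either at an unadjusted p under 0.05. The differences that changed sign there were, in log2 units, SOCS3 214105_at (0.075), SOCS5 208127_s_at (-1.79) and 209647_s_at (-1.44), SOCS6 206020_at (-5.84), CISH 221223_x_at (-6.46), PIAS1 217862_at (-4.50) and 217864_s_at (-2.88), PTPN2 213136_at (-2.96) and 213137_s_at (-2.04), and PTPN11 205868_s_at (-4.87), 209895_at (-4.71), 209896_s_at (-5.34) and 212610_at (-5.99). A name then stands on another row's signal. No paired analysis was possible because there is only 1 group. Signal over background limits what can be said of probe sets near the limit. In simulated data for this comparison over 19065 probe sets, 73% of 200 probe sets placed 1 log2 unit above the limit were called. These 200 were drawn at random from all probe sets, and each kept its own SD. In the real data the median SD was 0.50 log2 units over probe sets not called and 0.29 over called ones. The 73% is therefore not the rate for probe sets really at that level.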
